A study of Mus musculus with 2 samples.

Results

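The genes described here are 10 members of the ADAMTS family of secreted proteases, Adamts1, Adamts2, Adamts5, Adamts6, Adamts9, Adamts12, Adamts15, Adamts16, Adamts18 and Adamts20, measured in cultured mouse embryonic ureters with and without NOGGIN. They were selected with their measured NOGGIN over control ratios known, so these ratios are a description and carry no test. Every probe whose accession belongs to 1 of the 10 genes is shown, 14 of the 39429 gene probes on the array. Of these, 12 probes of 9 genes passed the filter on dim probes, which left 21316 genes in all, and Adamts20 was the gene that did not. Of these 21316, 15795 have a gene symbol, and the rest are counted under the name the files give them.

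NOGGIN is an extracellular antagonist of bone morphogenetic proteins (BMPs), which it binds so that they cannot reach their receptors. Ureters were dissected from wildtype NMRI mouse embryos of mixed sex at E12.5 and kept for 18 h on transwell membranes, with NOGGIN added to the medium at 10 µg/ml or left out of it. RNA of 1 control culture and 1 NOGGIN culture was hybridised together on each of 2 Agilent 2-colour arrays, replicates 1 and 2, with the dyes exchanged. The red dye was on the control in replicate 1 and on the NOGGIN culture in replicate 2, and all cultures share strain, genotype, stage and culture time. The labels say neither how many embryos entered a culture nor that the replicates came from separate litters, so the spread between arrays may be technical, and with 2 arrays the precision of each value is limited.

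ADAMTS proteases are zinc metalloproteases that carry thrombospondin repeats, which hold them to the extracellular matrix and the cell surface. Different branches of the family cut different matrix proteins. The aggrecanase and versicanase group, to which Adamts1, Adamts5, Adamts9, Adamts15 and Adamts20 belong, trims large hyaluronan-binding proteoglycans such as versican, the procollagen N-proteinases such as Adamts2 remove the amino-terminal propeptide of fibrillar collagens, and Adamts6 acts on fibrillin microfibrils and the cell surface. Adamts12 is grouped with Adamts7, and Adamts16 and Adamts18 are close paralogues that have both been linked to the development of the kidney and genital tract. The early ureter is an epithelial tube in a mesenchymal coat that will form smooth muscle and connective tissue, and matrix remodelling belongs to that process.

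Promoter sequence was at hand for 6 of the 10 genes in a RefSeq table of the mouse build GRCm38.p6. The 250 bases before the annotated start are printed for the 3 with the clearest ratios. These are Adamts2 and Adamts18 (lower with NOGGIN by the labelled dyes) and Adamts1 (higher). The other matched genes were Adamts9, Adamts12 and Adamts20, and Adamts5, Adamts6, Adamts15 and Adamts16 were not matched. Each run reads 5′ to 3′ towards the start, on the strand of the gene, and capitals mark the letters GGCGCC, a GC-rich motif that BMP-activated SMAD proteins are known to bind. The Adamts2 window is chr11:50601835-50602084 on the plus strand, that of Adamts18 is chr8:113848840-113849089 on the minus strand, and that of Adamts1 is chr16:85803114-85803363 on the minus strand.
Adamts2: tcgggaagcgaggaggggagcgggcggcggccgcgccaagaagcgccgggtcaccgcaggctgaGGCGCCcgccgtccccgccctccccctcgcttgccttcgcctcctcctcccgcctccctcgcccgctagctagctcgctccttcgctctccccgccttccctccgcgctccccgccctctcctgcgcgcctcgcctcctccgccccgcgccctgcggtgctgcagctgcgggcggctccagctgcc
Adamts18: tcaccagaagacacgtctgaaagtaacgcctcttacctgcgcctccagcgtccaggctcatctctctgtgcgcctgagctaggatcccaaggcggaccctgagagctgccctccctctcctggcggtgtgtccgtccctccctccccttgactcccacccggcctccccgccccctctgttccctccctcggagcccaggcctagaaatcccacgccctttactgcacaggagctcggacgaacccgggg
Adamts1: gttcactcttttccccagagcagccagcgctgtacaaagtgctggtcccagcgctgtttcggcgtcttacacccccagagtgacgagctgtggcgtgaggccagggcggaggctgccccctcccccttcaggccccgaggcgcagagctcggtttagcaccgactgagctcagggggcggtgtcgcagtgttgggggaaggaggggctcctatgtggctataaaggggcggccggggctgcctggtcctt
Adamts2 held 1 GGCGCC, whose first base lay at -186 from the start. Among the 6 matched genes Adamts9 held the only other one, at -183, so 2 of 6 had the motif, beside 9.586% of 32851 promoter windows of this length. The palindrome GTCTAGAC, the SMAD-binding sequence in its doubled form, was in 0 of the 6 and in 0.167% of all windows. Both motifs read the same on both strands, so each search covered both, and with GTCTAGAC absent no match overlapped another motif. A match is a stretch of letters only, and a window without one says nothing of SMAD binding. GC content of the windows printed was 78.0% (Adamts2), 65.2% (Adamts18) and 65.6% (Adamts1).

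Log2 ratios are NOGGIN over control as the labelled dyes give them, stated as the mean ± SD of the array values (n = 2), and levels are normalised log2 signals of 1 probe, which are compared between cultures and never between probes. The direction is not settled. In the authors' deposited table, a signed fold change per probe and array, the signs are opposite to those the labelled dyes give. Id2, a direct target of BMP signalling that a BMP antagonist would be thought to lower, had a log2 ratio of 2.73 ± 0.87 by the dyes and fold changes of -4.19 and -10.5 in the authors' deposited table. Id1 and Smad9, the other genes checked for the sign, were at 1.98 ± 0.62 and 2.37 ± 0.20 by the dyes. Their fold changes in the authors' deposited table were -2.82 and -5.67 for Id1, and -5.26 and -6.74 for Smad9. Id1, Id2 and Smad9 were thus all higher with NOGGIN by the labelled dyes. For Id2 this is opposite to what a BMP antagonist would be thought to do. Over 18825 bright probes the log2 values of the authors' deposited table correlated at -0.985 and -0.989 with the ratios of the same array used here, against -0.720 and -0.723 with the other array. "Higher" and "lower" therefore refer throughout to the channel labelled NOGGIN, and if the labels are crossed each turns into the other at the same size. No direction of the response to NOGGIN is claimed.

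By the dyes in the labels, 3 of the 9 genes that passed the filter were at least 1.5-fold lower with NOGGIN on both arrays, Adamts16, Adamts2 and Adamts18, and 0 were at least 1.5-fold higher on both. Over all 21316 genes the shares were 1.55% (330 genes) and 1.35% (288 genes), which is given for scale only, since the members were chosen on this contrast. Ratios were negative on both arrays for 7 of the 9 genes, positive on both for Adamts1 and of opposite sign for Adamts9. Their median log2 ratio was -0.43, beside 0.00084 over all genes. Of all genes 33.1% were negative on both arrays and 33.6% positive on both. Just inside the 1.5-fold limit lay Adamts18, 1.60-fold lower on replicate 1. Adamts5, 1.41-fold lower on replicate 1, and Adamts15, 1.48-fold lower on replicate 2, stayed just under the limit on both arrays. Adamts1 was 1.55-fold higher on replicate 2 and under the limit, at 1.39-fold, on replicate 1.

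**Figure D1:**
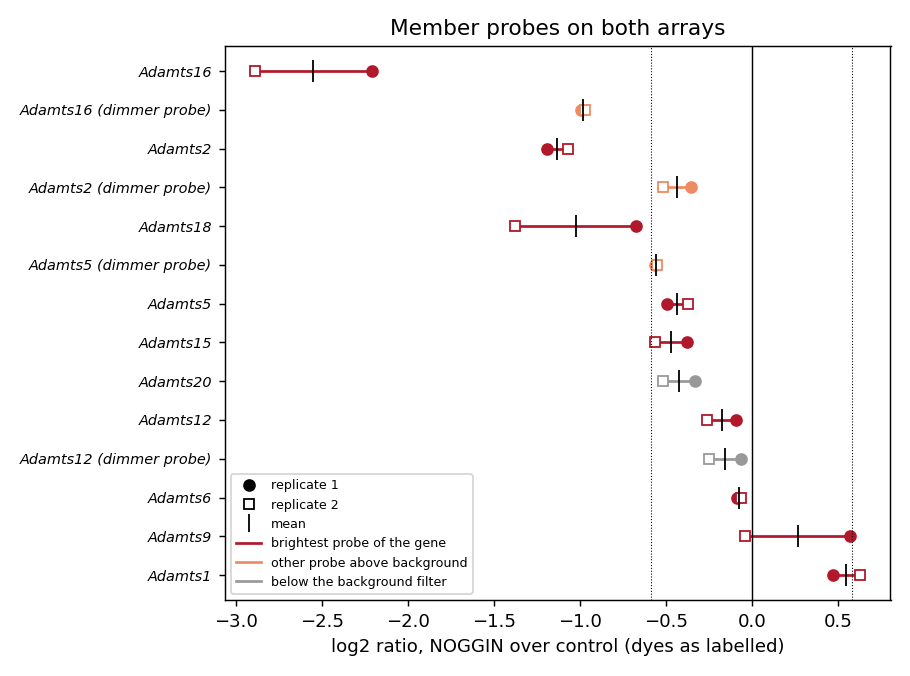
Log2 ratio of NOGGIN over control (x axis, dyes as labelled) for each of the 14 probes, with replicate 1 as a filled circle, replicate 2 as an open square, the mean as a tick and the 1.5-fold limits as dotted lines. The brightest Adamts16 probe lies farthest left at -2.21 and -2.89, most other probes lie between the dotted lines, and Adamts1 and Adamts9 lie to the right by their means.

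The plot of ratios by probe shows how far apart the family members were and how well the arrays matched for each. The brightest Adamts16 probe stood alone on the left. The brighter Adamts2 probe, Adamts18 and the dimmer Adamts16 probe (-0.98) followed. A middle group of Adamts5, Adamts15, the dimmer Adamts2 probe and the dim Adamts20 probe lay between these and 0. Adamts12 and Adamts6 were close to 0.

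Adamts16, a protease known to cut fibronectin, had the largest difference. Its brightest probe (A_52_P424231) read 10.58 in the control and 8.37 in the NOGGIN culture of replicate 1, and 10.71 and 7.82 in those of replicate 2. Both control cultures were high and close to each other, both NOGGIN cultures were low, and the groups did not overlap. The share of all genes that separate in this way was not counted. Separation needs the same sign on both arrays, and 33.1% of all genes were negative and 33.6% positive on both. Here and below, groups that do not overlap are therefore only a description. The log2 ratios were -2.21 and -2.89, with a mean of -2.55 ± 0.48, which is a 5.86-fold difference. On the linear scale, after subtraction of the local background only, the control and NOGGIN channels read 1734 and 208 on replicate 1, and 1366 and 181 on replicate 2. All spots of this probe were well above background in both channels of both arrays, and the SD between its 4 spots was 0.084 and 0.14, less than the gap between the arrays. By the mean ratio it was the 3rd lowest of the 21316 genes. The authors' deposited table gives fold changes of 5.94 and 11.4 for this probe, of opposite sign and larger than the 4.63-fold and 7.42-fold found here.

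The second Adamts16 probe (A_52_P452660) was dim and gave a smaller ratio in the same direction. It read 7.74 and 6.74 in the control and NOGGIN cultures of replicate 1, and 7.79 and 6.82 in those of replicate 2. The NOGGIN cultures were again the low ones and did not overlap the controls, at -0.98 ± 0.018 on the log2 scale, or 1.98-fold. The share of spots well above background in the NOGGIN channel was 0.75 on replicate 1 and 0.25 on replicate 2, so its low end lies near the background. The filter kept this probe only for the control channel, where it is high, so its direction gives no support to that of the brightest probe. Its ratio moved with the background treatment, to -1.52 with a normexp offset of 0 and to -2.26 with the scanner's processed signals, while the brightest probe went to -2.80 and -2.97. Where the kept probes of each gene were averaged, this dim probe included, Adamts16 came to -1.77. Whether the probes also differ in the transcripts they detect was not tested.

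**Figure D2:**
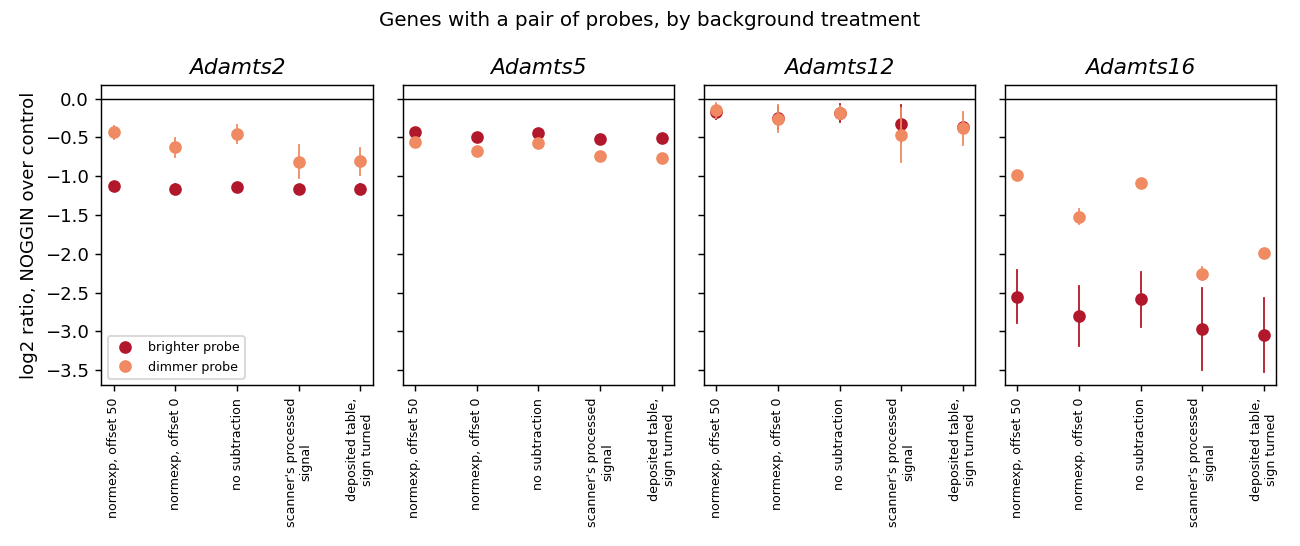
Mean log2 ratio (NOGGIN over control, y axis) of the brighter and the dimmer probe of the 4 genes with a pair of probes, under 5 treatments of the background or signal (x axis), with bars from one array's value to the other's. The brighter probe is lower throughout for Adamts16 (-2.55 against -0.98 in the main setting at the left) and Adamts2 (-1.13 against -0.43), and the dimmer probe is the one that moves more between treatments.

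The plot of probe pairs shows that the probes of a gene had the same sign in all 4 genes under the 5 treatments drawn, and differed in size in Adamts16 and Adamts2. In the main setting the difference, brighter minus dimmer, was -1.57 for Adamts16, -0.70 for Adamts2, 0.12 for Adamts5 and -0.021 for Adamts12.

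Adamts18, the paralogue of Adamts16, was lower with NOGGIN on both arrays but by unequal amounts. Its single probe (A_51_P283968) read 10.17 in the control and 9.49 in the NOGGIN culture of replicate 1, and 9.97 and 8.59 in those of replicate 2. The NOGGIN cultures lay below both controls, and that of replicate 2 was the lowest by a clear margin. The log2 ratios were -0.68 and -1.38, with a mean of -1.03 ± 0.50, or 2.04-fold. The paralogues shared the larger ratio on replicate 2. A larger SD over the arrays than that of Adamts16 was found in 1.13% of genes and than that of Adamts18 in 1.02%, and with the dyes exchanged, a dye effect and a difference between cultures cannot be told apart in this spread. Adamts18 was the 144th lowest gene by its mean.

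Adamts2, which removes the amino propeptide of procollagens, was about as low as Adamts18 with less spread. Its brighter probe (A_51_P227222) read 11.47 and 10.28 in the control and NOGGIN cultures of replicate 1, and 11.77 and 10.70 in those of replicate 2. Both NOGGIN cultures were below both controls. The log2 ratio was -1.19 and -1.07, with a mean of -1.13 ± 0.085, or 2.19-fold, and it was the 112th lowest gene. Its dimmer probe (A_52_P184042) read 7.50 and 7.15 on replicate 1 and 7.64 and 7.12 on replicate 2, a ratio of -0.43 ± 0.12. That probe came to -0.81 with the processed signals.

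**Figure D3:**
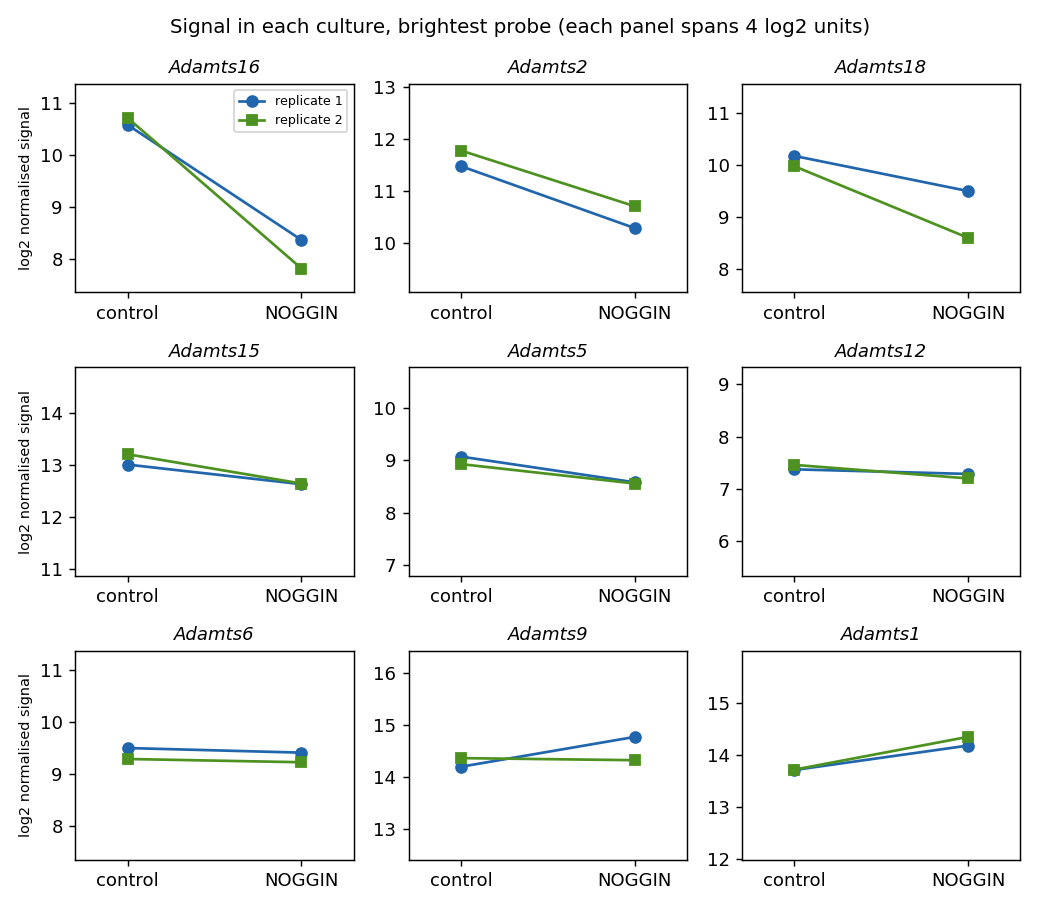
Normalised log2 signal (y axis) of the brightest probe of each member gene in the 4 cultures, with a line joining the control and the NOGGIN culture of an array and 4 log2 units on each y axis. The lines fall steeply for Adamts16, from 10.58 to 8.37 and from 10.71 to 7.82, fall less for Adamts2 and Adamts18, and rise on both arrays for Adamts1.

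The plot of signals by culture shows the same pairs as levels. In Adamts16, Adamts2 and Adamts18 both lines fall and both control points lie above both NOGGIN points, whereas in Adamts9 the lines part. The share of all genes with such separation was not counted.

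Among the proteoglycan-cutting members, Adamts5 and Adamts15 were lower and Adamts1 was higher. Adamts5, a main aggrecanase of cartilage that also cleaves versican, has a pair of probes with close ratios. The brighter one (A_55_P1956918) read 9.07 and 8.58 on replicate 1 and 8.93 and 8.56 on replicate 2, at -0.43 ± 0.086, and the dimmer one (A_55_P1970826) read 8.43 and 7.87, then 8.57 and 8.02, at -0.56 ± 0.0075. In both probes each control culture was above each NOGGIN culture. Adamts15 (A_51_P311038), another versicanase, read 13.01 and 12.63 on replicate 1 and 13.21 and 12.64 on replicate 2, at -0.47 ± 0.13, a 1.38-fold difference. Here too the controls lay above the NOGGIN cultures, and the NOGGIN cultures were nearly equal.

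Adamts1 (A_52_P489295), which cleaves versican and is active in vessels and in the developing urogenital tract, went the other way. It read 13.72 in the control and 14.19 in the NOGGIN culture of replicate 1, and 13.72 and 14.35 in those of replicate 2. The controls were equal to 2 decimals and both NOGGIN cultures were above them, at 0.55 ± 0.11 on the log2 scale, or 1.46-fold, and it ranked 457th from the top. The endothelial markers Pecam1, Cdh5 and Kdr were at 0.17 ± 0.12, 0.34 ± 0.13 and 0.19 ± 0.076 beside it, and limma called 0 of these 3 at an adjusted p of 0.05 and 1 at an unadjusted p under 0.05, where 3.95% and 12.3% of all genes were called higher. Their part in the Adamts1 value was not tested. In the genome Adamts1 and Adamts5 are neighbours on chromosome 16 with 1 annotated gene between them, and their ratios had opposite signs on both arrays.

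Adamts9 (A_52_P49321), a protease of the GON-1 branch that cleaves versican, did not repeat between the arrays. It read 14.20 in the control and 14.77 in the NOGGIN culture of replicate 1, but 14.37 and 14.33 in those of replicate 2. The NOGGIN culture of replicate 2 lay between the controls, so the groups overlap. The ratios of 0.57 and -0.040 average to 0.27 ± 0.43, with the SD larger than the mean, and no direction can be given. Only 1.56% of genes had a larger SD. Adamts20, the closest relative of Adamts9, did not pass the filter in either condition, as it required over 0.5 of the spots well above background. It had a share of 0.5 in the control channel of replicate 1 and of 0 in the NOGGIN channel of replicate 2. Its probe (A_55_P1953107) read 7.06 and 6.73 on replicate 1 and 7.18 and 6.66 on replicate 2, at -0.42 ± 0.13, and at -1.33 with the processed signals, so its size rests on the background treatment.

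Adamts6 and Adamts12 differed little. Adamts6 (A_66_P114705) read 9.50 and 9.41 on replicate 1 and 9.29 and 9.23 on replicate 2, at -0.075 ± 0.019, and the gap between the arrays' controls was larger than either ratio. Adamts12 (A_52_P233305), which is known to cleave cartilage oligomeric matrix protein, read 7.37 and 7.28 on replicate 1 and 7.46 and 7.20 on replicate 2, at -0.17 ± 0.12. Its second probe (A_55_P1980200) did not pass the filter and read 6.90 and 6.84, then 7.02 and 6.78, at -0.15 ± 0.13. The controls of Adamts12 lay above the NOGGIN cultures in both probes, those of Adamts6 overlapped with them.

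In the order of the mean ratios of the brightest probes, Adamts16 came first by a gap that exceeded its own SD. Adamts2 and Adamts18 (-1.13 ± 0.085 and -1.03 ± 0.50) did not differ beyond their spread, nor did Adamts15 and Adamts5 (-0.47 ± 0.13 and -0.43 ± 0.086), and Adamts12 and Adamts6 lay closer to each other than the SD of Adamts12. Adamts9 and Adamts1 at the top were likewise within the SD of Adamts9.

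The remaining genes of the family, which were not among the 10, were tested against 0 with limma, with adjustment over all 21316 genes. Of 9 such genes 8 were measured, and 3 were lower, 0 higher and 5 did not pass an adjusted p of 0.05, with a median of -0.15. Over all genes 4.04% passed as lower and 3.95% as higher. At an unadjusted p under 0.05, 4 were lower and 1 higher, beside 11.0% and 12.3% of all genes. Adamts8, a protease close to Adamts15 in sequence and its direct neighbour on chromosome 9, was lower in both pairs, from 10.91 to 9.63 on replicate 1 and from 10.61 to 9.12 on replicate 2. Its ratio was -1.38 ± 0.15 (adjusted p = 0.00394, limma; range over the alternatives 0.00141 to 0.0869), and its second, dimmer probe gave -0.20. Adamts17 was lower at -0.51 ± 0.18 (adjusted p = 0.0372, limma; 0.0276 to 0.167), with -0.27 on its second probe, and Adamts7, the partner of Adamts12, at -0.47 ± 0.16 (adjusted p = 0.0409, limma; 0.0270 to 0.166). The calls of Adamts17 and Adamts7 were lost with the processed signals, with median centring alone and with the authors' deposited table. Adamts3, a procollagen N-proteinase like Adamts2, was at 0.45 ± 0.20 and missed the threshold (adjusted p = 0.0567, limma; 0.0259 to 0.212), but passed as higher in 7 of the alternatives. Adamts4, Adamts10, Adamts14 and Adamts19 did not pass either, at -0.066, -0.23, -0.028 and 0.10, and Adamts13 did not pass the filter on dim probes.

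**Figure D4:**
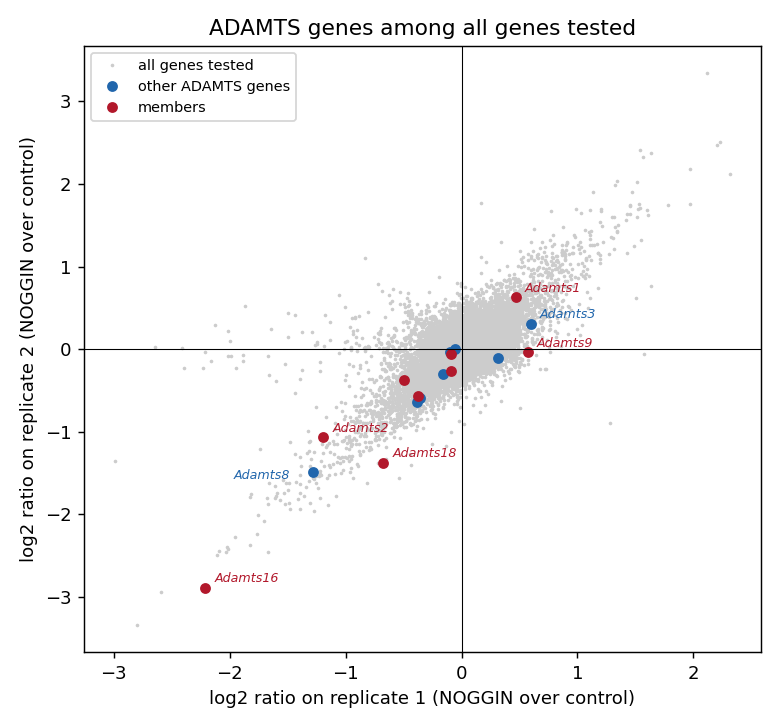
Log2 ratio (NOGGIN over control) on replicate 1 (x axis) against replicate 2 (y axis) for all 21316 genes in grey, the 9 measured members in red and the 8 other ADAMTS genes in blue. Adamts16 sits at the lower left end of the cloud at -2.21 and -2.89, followed by Adamts8, Adamts2 and Adamts18, and Adamts9 lies beside the y = 0 line.

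The plot of all genes on both arrays places the family in the whole data set, where the arrays correlated at r = 0.702 (Spearman's rho = 0.53) across genes, which are not independent replicates. Most ADAMTS genes lay inside the cloud, and the 4 whose mean difference was over 2-fold (Adamts16, Adamts8, Adamts2 and Adamts18) lay towards the lower left. The genes whose pair of ratios was nearest to that of Adamts16, by Euclidean distance over the 2 arrays, were Fgf18 at 0.38, Adcy7 at 0.41, Bmp2 at 0.47, Tmem132c at 0.47 and Lrig1 at 0.51. Their mean log2 ratios were -2.77 (Fgf18, a fibroblast growth factor), -2.30 (Adcy7, an adenylyl cyclase), -2.26 (Bmp2, a BMP ligand), -2.25 (Tmem132c) and -2.22 (Lrig1, a membrane regulator of growth factor receptors).

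The ADAMTS-like proteins share the thrombospondin repeats but lack the protease domain. Of 7 such genes, papilin included, 5 were measured, and 1 was lower, 1 higher and 3 did not pass, with a median of -0.088. Of all genes, 4.04% passed as lower and 3.95% as higher. Adamtsl4, a microfibril protein, was higher at 0.64 ± 0.095 (adjusted p = 0.0144, limma), and Thsd4, which promotes microfibril assembly, was lower at -0.50 ± 0.14 (adjusted p = 0.0324, limma), a call lost with the authors' deposited table and with median centring alone, where its adjusted p reached 0.151. Adamtsl3 and Papln did not pass the filter.

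Of 20 matrix proteins that ADAMTS proteases cleave or bind, 18 were measured, and 4 were lower, 3 higher and 11 did not pass, with a median of -0.13. The shares that passed over all genes were 4.04% lower and 3.95% higher. With both conditions required to be above background, 4 were lower and 2 higher of 16, since Bcan had entered through its NOGGIN channel. Col3a1, a fibrillar collagen whose precursor is a substrate of Adamts2, was lower at -0.89 ± 0.19 (adjusted p = 0.0102, limma). Fn1, fibronectin, was lower at -0.47 ± 0.064 (adjusted p = 0.0283, limma), a call lost in 4 of the alternatives, where its adjusted p reached 0.358. Col1a2 and Dcn also passed as lower, at -0.43 ± 0.16 and -0.39 ± 0.014, and Col2a1 as higher at 0.46 ± 0.063, calls that were lost in 6, 4 and 3 of the alternatives. Ltbp1, a matrix protein that holds latent TGF-beta, was higher at 0.67 ± 0.17 (adjusted p = 0.0180, limma). Bcan, the proteoglycan brevican, was at 0.60 ± 0.27 (adjusted p = 0.0409, limma). Its control channel was not well above background on replicate 1, so that the filter kept it only for the channel where it is high, and its call gives no support. The ratio of Bcan ranged from 0.60 to 1.64 over the alternatives, and the call was lost with the authors' deposited table and with median centring alone, where its adjusted p reached 0.183. Vcan, or versican, the main embryonic substrate of Adamts1, Adamts5, Adamts9 and Adamts15, was at 0.20 ± 0.25 and did not pass (adjusted p = 0.343, limma). Its other probes gave 0.11 and -0.078, so the sign was not shared between probes.

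The proteins that inhibit ADAMTS proteases, activate their precursors or help their secretion differed in 1 case. Of 14 listed genes 13 were measured, and 0 were lower, 1 higher and 12 did not pass in limma, with a median of -0.058 (3 lower and 2 higher at an unadjusted p under 0.05, beside 11.0% and 12.3% of all genes). Timp4, a tissue inhibitor of metalloproteases, was higher at 1.03 ± 0.036 (adjusted p = 0.00466, limma), a 2.04-fold difference. Timp3, the inhibitor best known for blocking ADAMTS enzymes, was at -0.14 ± 0.25 and the activating protease Furin at 0.045 ± 0.12, neither of which passed. Among 22 other metalloproteases 21 were measured, and 3 were lower, 3 higher and 15 did not pass, with a median of 0.011. At an adjusted p of 0.05 in limma the shares over all genes were 4.04% lower and 3.95% higher. Adam12 was higher at 0.63 ± 0.097 (adjusted p = 0.0151, limma), though its other probes gave 0.25 and 0.18 and the call was lost where probes were averaged. Adam19 was lower at -0.62 ± 0.085 (adjusted p = 0.0154, limma), Mmp17 lower at -0.57 ± 0.057 (adjusted p = 0.0174, limma) and Mmp19 higher at 0.56 ± 0.095 (adjusted p = 0.0202, limma). Adam33 passed as lower and Adam10 as higher. With each array only centred on its median, without loess, limma called 0 of the 65 related genes, and 22 had an unadjusted p under 0.05, beside 16.7% of all genes in that setting.

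**Figure D5:**
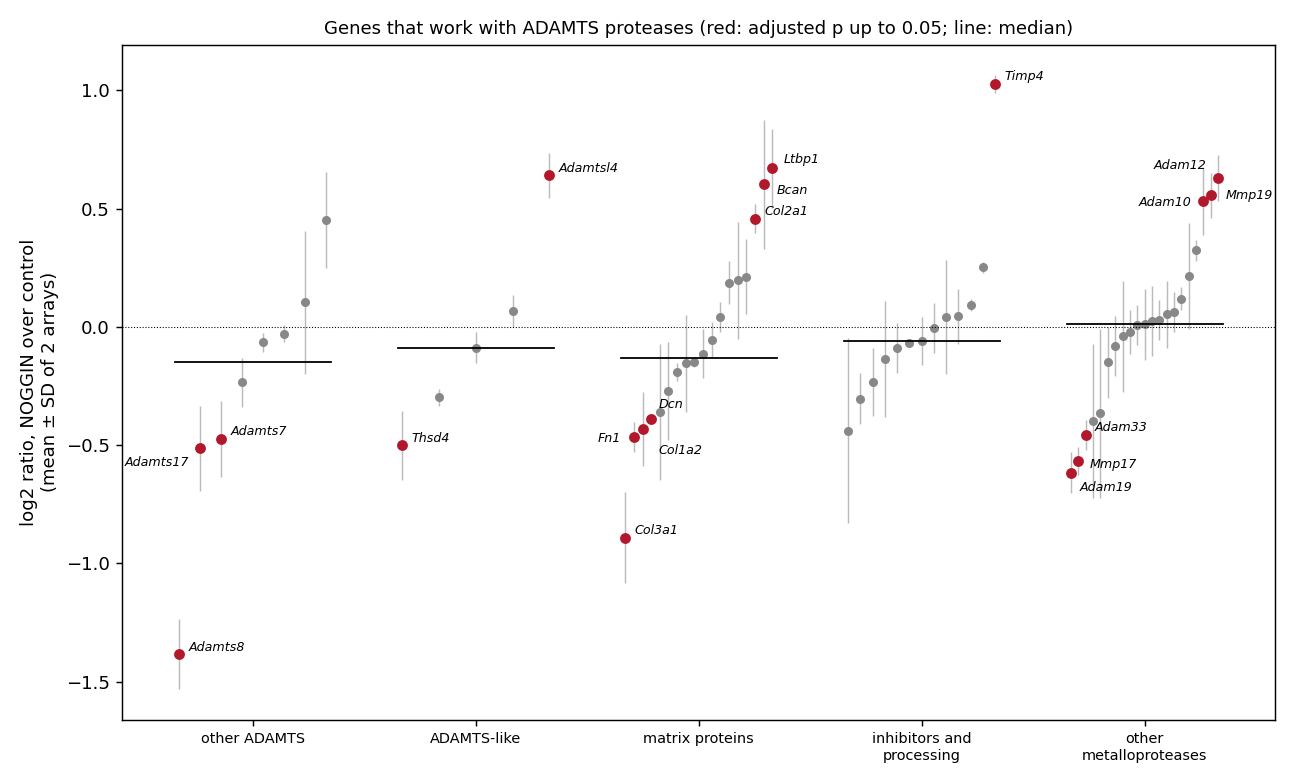
Mean log2 ratio (NOGGIN over control, y axis) with bars for the SD over 2 arrays, for the measured genes of the 5 lists, where red points passed an adjusted p of 0.05 in limma and the line is the median of a list. The medians lie between -0.15 and 0.011, Adamts8 is the lowest point at -1.38 and Timp4 the highest at 1.03.

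The plot of the related lists shows that passing genes lay on both sides of 0 in the ADAMTS-like, matrix and metalloprotease lists, and below 0 in the list of other ADAMTS genes in the main setting, where Adamts3 just missed the threshold on the higher side.

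Markers of the cell types in the ureter were all above background in all 4 cultures. Tbx18, the defining gene of the ureteric mesenchyme, was higher at 1.25 ± 0.27 (adjusted p = 0.00693, limma). The epithelial markers Cdh1, Epcam, Krt8 and Krt18 lay between -0.077 and 0.23, and limma called 0 of 4 (1 at an unadjusted p under 0.05). Of all genes, limma called 4.04% lower and 3.95% higher, and 11.0% and 12.3% at an unadjusted p under 0.05. The smooth muscle markers were lower, 3 of 3, with Acta2 at -1.16 ± 0.23, Tagln at -1.09 ± 0.14 and Myh11 at -0.91 ± 0.14, in the same direction as Adamts16, Adamts2 and Adamts18 and by an amount close to that of the latter pair. Acta2 read 18.00 and 18.00 in the controls against 16.68 and 17.00 with NOGGIN, and the part of muscle cells in the protease values was not tested. Foxd1, a marker of kidney stroma, was lower at -0.80 ± 0.20 (adjusted p = 0.0136, limma), while Six2, Cited1 and Ret lay between 0.047 and 0.075. The macrophage marker Adgre1 was at -0.28 ± 0.91, the widest spread of all the markers. In whole ureters, fewer cells of a type and less RNA per cell cannot be told apart.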

How the data were processed

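The authors deposited scanner output of 2 Agilent 2-colour arrays as linear spot intensities. The submitters' processing notes name Agilent Feature Extraction 10.7.3.1. Per the file headers a log10 ratio of red over green is given for each spot, which matched the ratio of the processed signals within 0.001 at 100% of spots above background in both channels and served for nothing else. A further table deposited by the authors holds a score for each probe on each array, a fold change with a sign, whose median is 1. Its scaling was not given in the sources used here.

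Control spots were left out, as were outlier spots (3.69% of gene spots on each array). Of the gene spots 0 were saturated, and by channel 67.3% to 74.3% exceeded background well. Mean signals were corrected with normexp (offset 50), normalised with loess within each array, and averaged over the 4 spots of a probe. Probes were named through a RefSeq table of GRCm38.p6, which gave 28328 a symbol. The filter kept the 26712 probes with over 0.5 of their spots well above background on both arrays in at least 1 condition, and the brightest kept probe stood for a gene. Genes other than the 10 were tested against 0 by two-sided limma tests (version 3.58.1, R 4.3.3; 1 residual and 4.13 prior degrees of freedom) with Benjamini-Hochberg adjustment over 21316 genes, after a check on simulated data. Named were all 10 members, of each list up to 4 passing genes with the largest mean, and the 5 genes nearest to Adamts16; other list genes named were picked after their values were seen. Members and lists were chosen with earlier results of these data known. The alternatives were other background corrections, processed signals, median centring, other filters, spot and probe summaries, the deposited table, an intensity trend, other thresholds and each array alone.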

Additional observations from a re-analysis of the deposited data

How the results depend on the processing

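The brightest Adamts16 probe, at -2.55, kept its sign under all alternatives run, and moved by more than its SD with the authors' deposited table turned to the labels' direction (-3.04) and with the mean of the probes of the gene (-1.77). With 1 array left out it lay between -2.89 and -2.21. The count of members at least 1.5-fold lower was 3 under all alternatives except a 2-fold limit (2), and 3 on each array alone. The count higher was 0, with 0 to 1 when an array was left out, the 1 being Adamts1 on replicate 2. For the other 13 probes and 7 processing settings, 91 values in all, 73 moved by less than the SD between arrays, 18 by more and 0 changed sign. These settings include the authors' deposited table with its sign turned. As deposited, its values for these probes were opposite in sign to the mean ratios used here, so for that setting the 0 rests on the turn.

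Of 65 related genes 11 passed as lower and 8 as higher, beside 4.04% and 3.95% of all genes. The lower count was 6 with processed signals, 0 with median centring alone, 5 with the authors' deposited table and 1 at an adjusted p of 0.01. In the alternatives not named here the lower count was 8 to 12. The higher count was 0 with median centring alone, 1 at an adjusted p of 0.01, and 7 to 9 in all others. Over all genes 1704 passed, 0 with median centring alone (3568, or 16.7%, at an unadjusted p under 0.05, limma) and 1366 to 2002 otherwise. The cause was not tested. Median centring alone moved the median of all genes to -0.038. An array alone leaves no residual degrees of freedom, so it gave values with no test. The test is a paired one already, since each array holds 1 control and 1 NOGGIN culture and its ratio is their difference. Dim probes (the second ones of Adamts16 and Adamts2, both of Adamts12, and Adamts20) have sizes that depend on the background treatment, and depth on an array is limited there by signal over background.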
